A study of Homo sapiens with 6 samples.

Results

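The comparison described here sets Hs578T cells 9 h after induction of HOXA5 against the same cells 6 h after induction. It uses 4 of the series' 6 Affymetrix arrays, the 6 h and the 9 h array of experiment 1 and of experiment 2, chosen by their titles and paired by the experiment number, and all probe sets other than the array maker's controls. Hs578T is a mesenchymal-like human breast cancer cell line, and every array of the series holds RNA from a single derivative of it with an inducible HOXA5 gene, made as in an earlier report according to the labels. The 0 h group is that line before induction, the 6 h group is the line 6 h into induction, and the 9 h group is the line 9 h into induction, with 2 arrays in each group. Per the labels a dish of 10 cm was seeded with cells and induced 24 h later, and the labels describe the experiments as separate batches of RNA, so the p-values measure only the spread between these arrays. The sources used here do not name the agent that induced the gene, or its dose. Neither induced time has an uninduced array of its own in the samples used here, so the hours in culture, the agent and HOXA5 cannot be told apart. HOXA5 mRNA was not analysed here, because 0 probe sets were named for that gene.

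HOXA5 is a homeobox transcription factor that is frequently silenced in breast tumours and that has been linked to p53 and to caspase-dependent cell death in breast cancer cells. A comparison of a later with an earlier time of induction asks which transcripts are still moving after the first response. Several gene programmes are known to act on this scale of hours. Immediate-early genes such as FOS and JUN encode unstable transcription factors that are switched on by growth factor and stress signals, in part through serum response factor at CArG boxes. ATF4 is a transcription factor made when amino acids run short or when protein folding fails, and it activates amino acid synthesis, transport and tRNA charging through C/EBP-ATF response elements. SR proteins and the CLK kinases that phosphorylate them set the choice of splice sites, and many of their transcripts are controlled by retained introns. Genes for DNA replication are driven by E2F factors as cells pass from G1 into S phase, and genes for mitosis peak later in the cycle. In bulk RNA, a smaller number of cells in a state and less RNA per cell cannot be told apart.

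Promoter stretches of 7 members of these lists are shown because their gene families are classically read through such elements. They were taken from RefSeq promoter windows of build GRCh38.p14, from 250 bases before to 50 after each gene's start. All windows were searched on both strands and for each motif separately, so that matches of different motifs could overlap. Capitals mark the match to the C/EBP-ATF response element TGATGNAA in ASNS (chr7:97872449-97872548, minus strand), IARS1 (chr9:92293698-92293797, minus strand) and CHAC1 (chr15:40953221-40953320, plus strand). In EGR1 (chr5:138465326-138465425, plus strand) they mark 2 CArG boxes. In MCM7 (chr7:100101398-100101497, minus strand), POLA2 (chr11:65261837-65261936, plus strand) and GINS2 (chr16:85688958-85689057, minus strand) they mark the E2F-type element TTTNNCGC. Each line runs 5′ to 3′ on the gene's strand, and a match on the other strand appears as its reverse complement.
ASNS: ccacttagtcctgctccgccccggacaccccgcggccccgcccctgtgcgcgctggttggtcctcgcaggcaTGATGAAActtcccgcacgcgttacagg
IARS1: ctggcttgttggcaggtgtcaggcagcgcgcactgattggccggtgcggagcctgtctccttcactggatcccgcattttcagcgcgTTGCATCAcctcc
CHAC1: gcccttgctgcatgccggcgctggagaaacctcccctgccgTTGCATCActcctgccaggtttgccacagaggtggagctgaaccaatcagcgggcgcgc
EGR1: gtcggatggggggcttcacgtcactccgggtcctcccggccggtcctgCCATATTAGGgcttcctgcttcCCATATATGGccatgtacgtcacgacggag
MCM7: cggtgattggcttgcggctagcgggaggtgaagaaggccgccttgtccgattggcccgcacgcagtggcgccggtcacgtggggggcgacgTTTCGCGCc
POLA2: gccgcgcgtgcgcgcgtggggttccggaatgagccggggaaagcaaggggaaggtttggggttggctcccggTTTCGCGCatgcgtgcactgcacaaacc
GINS2: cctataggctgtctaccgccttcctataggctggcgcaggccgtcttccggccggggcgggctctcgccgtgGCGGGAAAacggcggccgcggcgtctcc

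TGATGNAA was present in 9 of the 30 promoters found for the ATF4 and amino acid list (30%) and in 1003 of all 27305 promoters (3.67%). TTTNNCGC was present in 23 of the 40 promoters found for the DNA replication list (57.5%) and in 1884 of all promoters (6.9%). It was also present in 6 of the 26 promoters found for SR proteins and splicing kinases (23.1%). A CArG box was present in 2 of the 18 promoters found for the immediate-early list (11.1%), those of EGR1 and SRF, and in 351 of all promoters (1.29%). The HOX and PBX element TGATTNAT was in 0 promoters of these lists or of the collagen and extracellular matrix list, and in 802 of all promoters (2.94%). These matches describe the letters of the windows and were not set against the array values.

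The deposited values were intensities with no scaling between arrays. Before normalisation the median intensity was 18.7 and 39.1 on the 6 h arrays of experiments 1 and 2, and 48.7 and 42.4 on the 9 h arrays. The arrays were therefore quantile normalised together, and values under the 25th percentile were raised to a floor of 12.7 units. Signs of RNA quality moved with time in experiment 1 more than in experiment 2: the ratio of the ACTB 3′ to the 5′ control probe set was 1.77 times as high at 9 h as at 6 h in experiment 1 and 1.15 times in experiment 2, and that of GAPDH was 1.44 and 1.03 times as high. The ratio of the rRNA control signal to the array's median was 2.6 times as high at 9 h in experiment 1 and 1.27 times in experiment 2. Their part in the results was not tested, and the median change within experiment 2 is therefore given with the lists. Of 15 markers of mesenchymal-like breast cancer cells, 13 were above the floor on all 4 arrays, with a summed level of 24600 on both 6 h arrays and of 23300 and 24400 on the 9 h arrays. The luminal epithelial markers EPCAM, KRT19, CLDN4 and AGR2, the leukocyte markers CD14, CD52, CD3G and CORO1A, and the endothelial markers CDH5, TEK, TIE1 and CLDN5 were at the floor on all 4 arrays. Of the 16 luminal markers 10 were above the floor on all 4 arrays, as were 6 of the 14 leukocyte markers with a probe set and 3 of the 11 endothelial markers. The summed levels of the luminal markers were 2880 and 2080 at 6 h and 3180 and 2170 at 9 h. Those of the leukocyte markers were 791 and 1290 at 6 h and 762 and 913 at 9 h, and those of the endothelial markers were 529 and 378 at 6 h and 379 and 369 at 9 h. The label of the 6 h array of experiment 2 is not uniform, since its lot line names experiment 1, and its title was followed.

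FOS (at least 5.49-fold), ASNS (2.22-fold) and CLK1 (2.48-fold) were higher at 9 h than at 6 h in both experiments, and MCM5 (1.98-fold), AURKB (2.03-fold) and LOXL1 (2.15-fold) were lower in both, but no single gene passed the test across the array. Of the 18360 probe sets tested, which stand for 10444 genes, 0 (0%) passed an adjusted p of 0.05 in either direction in limma's moderated test with experiment as a block. The lowest adjusted p was 0.473. At an unadjusted p under 0.05 there were 881 probe sets higher at 9 h (4.8%) and 815 lower (4.44%), 1696 in all where the threshold itself allows 918. Without the block, limma called 0 probe sets, with 968 under an unadjusted p of 0.05. The call depended on the normalisation: when the 4 induced arrays were quantile normalised without the 0 h arrays, limma called 18 of 17553 probe sets higher (0.103%) and 8 lower (0.0456%), with a lowest adjusted p of 0.00878. That fit left 1 residual degree of freedom and estimated 26.8 prior degrees of freedom, against 2 and 7.51 in the fit of all 6 arrays. The same 4 arrays taken from the normalisation of all 6 gave 0 calls. Every value below comes from the fit of all 6 arrays, in which no gene passed, and each gene is therefore described by its levels, its change in each experiment and the standard error of the fitted change.

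At least a 2-fold difference in the same direction in both experiments was seen for 187 probe sets higher at 9 h (1.02%) and 157 lower (0.855%). Over genes these counts were 87 higher (0.833%) and 75 lower (0.718%). A further 233 probe sets (1.27%) differed at least 2-fold in opposite directions. Without any scaling between arrays the split was 755 higher and 11 lower, and the median of all genes then stood at a log2 change of 0.79 in place of -0.01. Across genes, 2865 were higher at 9 h in both experiments (27.4%) and 2844 lower in both (27.2%). Bright genes repeated better than dim ones. The log2 changes of the experiments correlated at Pearson r = 0.38 over the brightest 3482 genes, at 0.19 over the middle 3481 and at 0.05 over the dimmest 3481, as a description across genes that share their arrays. Of the dimmest genes 19.6% were higher and 21% lower in both experiments, of the middle genes 30.6% and 27.6%, and of the brightest 32.1% and 33.1%. The median standard error of the fitted change was 0.25 for the brightest, 0.40 for the middle and 0.47 for the dimmest genes. Of the dimmest genes, 129 (3.71%) differed at least 2-fold the same way in both experiments and 110 (3.16%) in opposite ways. Of the middle genes, 29 (0.833%) did so the same way and 17 (0.488%) in opposite ways. Of the brightest genes, 4 (0.115%) did so the same way and 1 (0.0287%) in opposite ways.

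**Figure D1:**
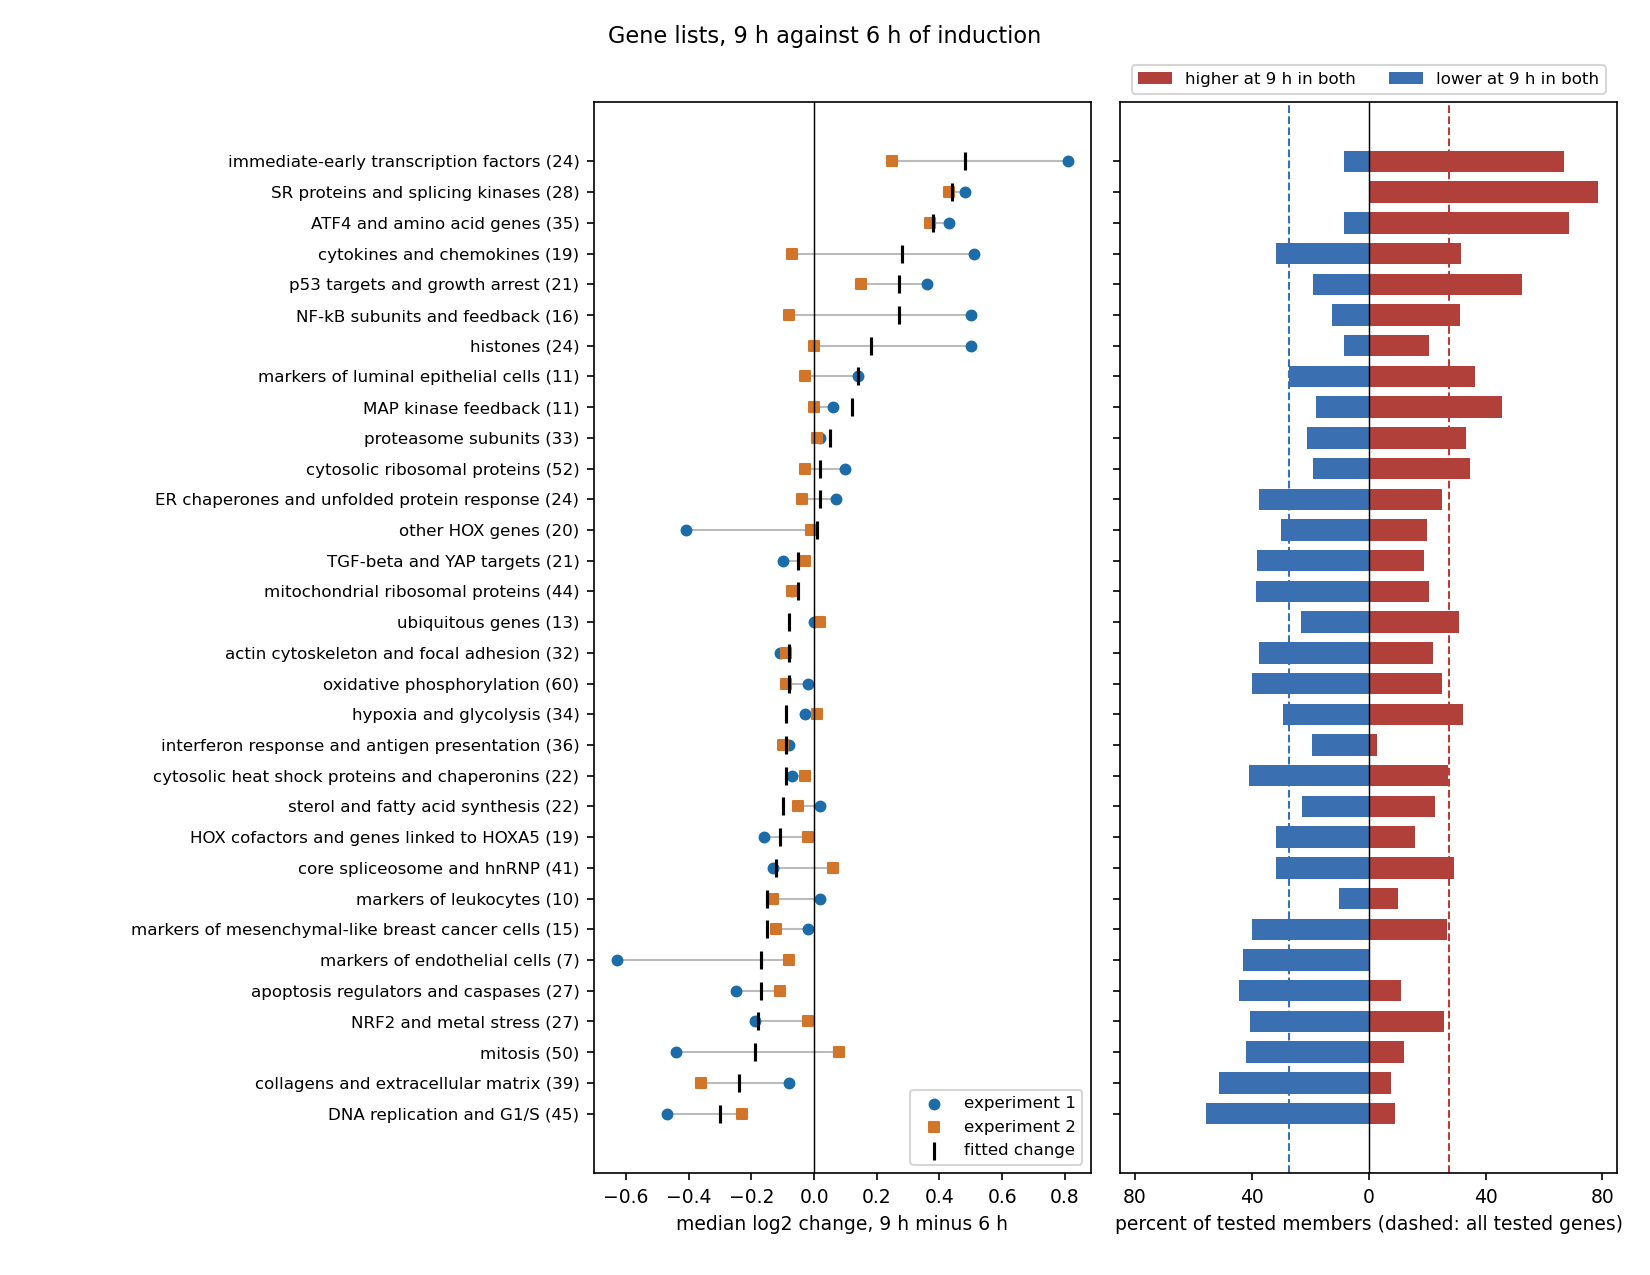
Left, median log2 change from 6 h to 9 h of the tested members of each gene list (number in parentheses) within experiment 1 (circles), within experiment 2 (squares) and in the fit of all arrays (black bars). Right, percent of tested members higher (red) or lower (blue) at 9 h in both experiments, with dashed lines at the 27.4% and 27.2% of all tested genes. The immediate-early, SR protein and ATF4 lists lie to the right of 0 in both experiments, and the DNA replication and extracellular matrix lists lie to the left in both.

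Among 32 gene lists, the immediate-early, ATF4 and SR protein lists were mostly higher at 9 h, and the DNA replication and extracellular matrix lists were mostly lower. The sign of the median of each of these 5 lists, relative to the median of all genes, was the same under every alternative tried. So was that of the p53, apoptosis and endothelial lists, while the medians of the other 24 lists turned sign under at least 1 alternative and have no settled direction. The direction of a list is relative to all genes. Unscaled, 16 of 45 replication members and 9 of 40 matrix members were higher in both experiments, and 0 lower. All genes then had 56.2% higher and 1.65% lower. With median scaling, 17 of 45 replication members were lower and 6 higher, and 12 of 39 matrix members were lower and 6 higher. All genes then had 20.1% lower and 34.6% higher. Counts below are of members higher or lower in both experiments, to be read against 27.4% and 27.2% of all genes, and a fitted change is on the log2 scale with its standard error. Values of a gene are normalised intensities, always with experiment 1 before experiment 2.

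Of the 26 immediate-early transcription factors, 24 were tested, and 16 of them (66.7%) were higher at 9 h in both experiments while 2 (8.33%) were lower. The median change was 0.48 in the fit, 0.81 within experiment 1 and 0.25 within experiment 2. FOS, which pairs with JUN proteins in the AP-1 factor, read 18.3 and 12.7 at 6 h against 128 and 54.6 at 9 h, and was at the floor on both 0 h arrays. Its fitted change was 2.46 ± 0.48, at least 5.49-fold because 1 of its 6 h arrays was at the floor, and its 9 h arrays lay above both 6 h arrays. FOSB, a close relative of FOS, read 12.7 and 21.1 at 6 h and 61.1 and 44.6 at 9 h (1.67 ± 0.46). FOS and FOSB thus read near the floor at 6 h and above it at 9 h in both experiments. Both genes were dim, and dim genes repeated poorly between the experiments. ATF3, a stress-induced repressor and activator of the same leucine zipper class, read 187 and 585 at 6 h and 483 and 939 at 9 h (1.02 ± 0.26). The groups overlapped for ATF3 because experiment 2 was higher at every time, but the 9 h value was above the 6 h value in each experiment. KLF10, a zinc finger factor induced by TGF-beta, read 543 and 590 at 6 h and 1430 and 838 at 9 h (0.95 ± 0.28).

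JUN was measured by 4 probe sets, all higher at 9 h in both experiments. The brightest read 914 and 1980 at 6 h and 1640 and 2370 at 9 h (0.55 ± 0.23), and another read 133 and 312 at 6 h and 512 and 655 at 9 h (1.51 ± 0.28). The probe sets of this gene thus shared a direction but not a size. MAFF, a small Maf protein, read 358 and 997 at 6 h and 1150 and 1350 at 9 h (1.06 ± 0.41). The orphan receptor gene NR4A1 read 12.7 and 32 at 6 h and 36.4 and 66.6 at 9 h (1.29 ± 0.52), and EGR3 read 35.2 and 26.7 at 6 h and 84.4 and 45.1 at 9 h (1.01 ± 0.49). Both were dim, NR4A1 with 1 array at the floor at 6 h, and their 9 h arrays lay above their 6 h arrays. NR4A1 read 50.5 and 43.9 at 0 h, so its 9 h value was below 0 h in experiment 1 and above it in experiment 2. EGR1, whose promoter above holds 2 CArG boxes, read 569 and 697 at 6 h and 615 and 1080 at 9 h (0.37 ± 0.29), so that most of its difference from the 0 h values of 68.5 and 200 was already there at 6 h. Its change turned to -0.22 when the lot line was used as the block. The exceptions were FOSL1, an AP-1 subunit associated with invasive cells, at 996 and 1800 against 569 and 1510 (-0.53 ± 0.23), and KLF2, at 110 and 106 against 76.8 and 101 (-0.30 ± 0.37). MYC and SRF were higher at 9 h in experiment 1 and lower in experiment 2, MYC at 410 and 810 against 870 and 629, and SRF at 12.7 and 97.4 against 104 and 73.9.

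**Figure D2:**
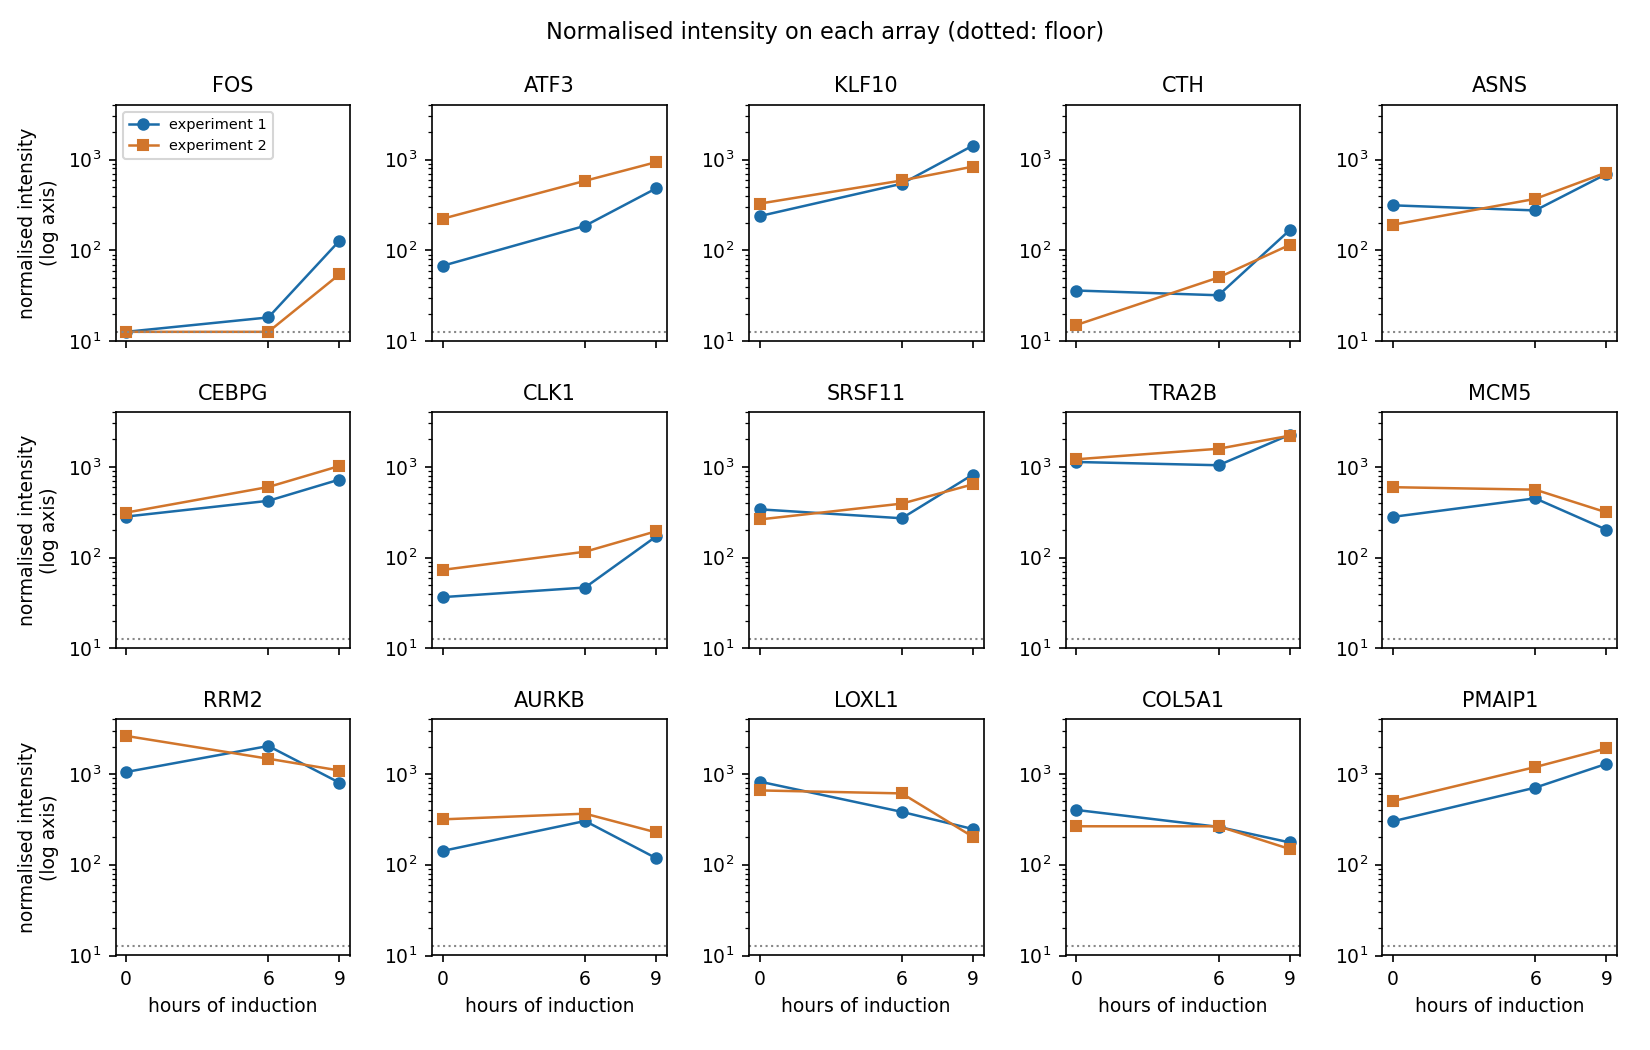
Normalised intensity (log axis) of 15 genes at 0 h, 6 h and 9 h of induction on each array, with circles for experiment 1, squares for experiment 2, lines joining the arrays of an experiment and a dotted line at the floor of 12.7. FOS stays near the floor until 6 h and reaches 128 and 54.6 at 9 h, ATF3 and PMAIP1 step upward at both intervals, and MCM5, AURKB and LOXL1 are lower at 9 h than at 6 h in both experiments.

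Genes activated by ATF4 and genes of amino acid supply were mostly higher at 9 h. Their medians were similar in both experiments, though single members differed more, such as IARS1 (0.68 and 0.16). Of 37, 35 were tested, 24 (68.6%) were higher at 9 h in both experiments and 3 (8.57%) lower, and the median change was 0.38 in the fit, 0.43 within experiment 1 and 0.37 within experiment 2. An unadjusted p under 0.05 was reached by 12 members, all higher at 9 h, where 4.79% of all genes reached it in that direction and 4.6% in the other. CTH, which makes cysteine from cystathionine, read 32.1 and 50.4 at 6 h and 167 and 115 at 9 h (1.78 ± 0.53, 3.44-fold). PSPH, the last enzyme of serine synthesis, read 63.4 and 49.6 at 6 h and 126 and 150 at 9 h (1.29 ± 0.45). Asparagine synthetase, ASNS, the standard reporter of the ATF4 pathway and 1 of the promoters shown, read 276 and 370 at 6 h and 695 and 722 at 9 h (1.15 ± 0.28, 2.22-fold). These 3 enzymes had all 9 h arrays above all 6 h arrays. ASNS was also among the 18 probe sets called when the induced arrays were normalised alone (log2 change 1.11, adjusted p 0.0376 in limma). That fit used the same arrays and is no separate support.

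CEBPG and CEBPB encode C/EBP partners of ATF4. CEBPG read 422 and 599 at 6 h and 724 and 1020 at 9 h, a change of 0.78 in experiment 1 and 0.77 in experiment 2. CEBPB read 921 and 1370 at 6 h and 1580 and 2110 at 9 h (0.70 ± 0.25). MTHFD2, a mitochondrial folate enzyme, read 852 and 522 at 6 h and 1410 and 866 at 9 h (0.73 ± 0.19). The experiments thus differed little in the size of the difference for these genes. Several charging enzymes for tRNA were higher as well. TARS1 read 901 and 1410 against 1480 and 2140 (0.66 ± 0.22), CARS1 read 1700 and 2830 against 3030 and 4030 (0.67 ± 0.25), EPRS1 read 351 and 435 against 563 and 658 (0.64 ± 0.23), and IARS1, whose promoter is shown, read 1050 and 1890 against 1680 and 2110. AARS1, which charges alanine, was not, at 662 and 1580 against 590 and 1740 (-0.01 ± 0.38). VEGFA, a secreted angiogenic factor that ATF4 also activates, read 250 and 322 at 6 h and 607 and 476 at 9 h (0.92 ± 0.31), and DDIT4, an inhibitor of mTOR signalling, read 206 and 187 against 546 and 275 (0.98 ± 0.39). SLC7A11, the cystine transporter, differed between its probe sets: 1 read 207 and 96.5 at 6 h and 528 and 280 at 9 h (1.44 ± 0.29), the brightest differed by 0.63 ± 0.26, and the third by -0.12.

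ATF4 mRNA itself did not share the direction of the list in both experiments, at 1520 and 3820 at 6 h and 2080 and 3510 at 9 h (0.16 ± 0.24). CHAC1, a glutathione-degrading enzyme whose promoter is shown, read 224 and 266 at 6 h and 382 and 263 at 9 h, a change of 0.77 in experiment 1 and -0.02 in experiment 2. TRIB3, a pseudokinase that restrains ATF4, read 113 and 93.9 at 6 h and 74.5 and 93.6 at 9 h (-0.30 ± 0.37), and the arginine and lysine transporter SLC7A1 read 1040 and 988 against 890 and 825 (-0.24 ± 0.20). SLC7A1 was thus lower in both experiments, while the difference of TRIB3 came from experiment 1. ER chaperones and genes of the unfolded protein response, kept as a separate list, had 6 of 24 tested members (25%) higher in both experiments and 9 (37.5%) lower, with a median of -0.04 within experiment 2. HYOU1, an ER chaperone, read 1210 and 977 at 6 h and 528 and 657 at 9 h (-0.88 ± 0.23). SDF2L1, another ER resident, read 424 and 189 against 287 and 115 (-0.64 ± 0.23), and the sensor gene ERN1 read 55.9 and 85.8 against 26.5 and 44.8 (-1.01 ± 0.44). HSPA5, the main ER chaperone, read 1070 and 777 at 6 h and 1170 and 706 at 9 h, and HERPUD1, a factor of ER-associated degradation, was higher at 283 and 115 against 426 and 178 (0.61 ± 0.25).

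SR proteins and splicing kinases had, of the 32 lists, the highest share of members that differed in the same direction in both experiments. Of 31, 28 were tested, 22 (78.6%) were higher at 9 h in both experiments and 0 lower, with a median change of 0.44 in the fit, 0.48 within experiment 1 and 0.43 within experiment 2. An unadjusted p under 0.05 was reached by 11 members, all higher, against 4.79% of all genes higher and 4.6% lower. CLK1, a kinase of SR proteins, read 46.8 and 116 at 6 h and 171 and 195 at 9 h (1.31 ± 0.40), and CLK4, its relative, read 182 and 256 against 558 and 409 (1.15 ± 0.29). Cyclins that act in splicing were higher too, CCNL1 at 461 and 844 against 922 and 1150 (0.72 ± 0.22) and the dim CCNL2, with 1 array at the floor at 6 h, at 51.1 and 12.7 against 93.5 and 101 (1.93 ± 0.56). CCNL2 read 114 and 113 at 0 h, so its 9 h values were below 0 h in both experiments. For all 4 genes the 9 h arrays lay above the 6 h arrays. TRA2B, a splicing activator, read 1040 and 1580 at 6 h and 2250 and 2200 at 9 h (0.79 ± 0.20), with all 3 of its probe sets higher in both experiments. SRSF7 read 798 and 914 against 1230 and 1490 (0.66 ± 0.19), and PNISR, an SR-related nuclear protein, read 98.4 and 76.6 against 232 and 130 (1.00 ± 0.32).

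The probe sets of SRSF11 did not share a direction. The brightest read 271 and 393 at 6 h and 822 and 641 at 9 h (1.15 ± 0.27), and of the other two tested, 1 was lower in both experiments. Each gene is represented here by its brightest probe set. SRSF3 was higher by 0.22 ± 0.19, at 1540 and 1360 against 1570 and 1820. SRSF1 read 941 and 1380 at 6 h and 995 and 1220 at 9 h, with experiments of opposite sign. RBM25, at 301 and 216 against 217 and 247, also had experiments of opposite sign. Other probe sets of SRSF1 (2 of 4) and of RBM25 (3 of 5) were higher in both experiments. The core spliceosome and hnRNP list did not share the shift of the SR list, with 12 of 41 members (29.3%) higher and 13 (31.7%) lower and a median of -0.12 in the fit, 0.06 within experiment 2, whose sign turned under other scalings. Its members included SNRPB, a core snRNP protein, at 1120 and 1250 against 635 and 851 (-0.69 ± 0.19), and HNRNPH3, at 449 and 480 against 736 and 673 (0.60 ± 0.20).

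Genes of DNA replication and the G1/S transition were lower at 9 h than at 6 h. Of 46, 45 were tested, 25 (55.6%) were lower in both experiments and 4 (8.89%) higher, and the median change was -0.30 in the fit, -0.47 within experiment 1 and -0.23 within experiment 2. MCM5, a subunit of the replicative helicase, read 449 and 560 at 6 h and 203 and 315 at 9 h (-0.99 ± 0.25). MCM7, another subunit and 1 of the promoters shown, read 501 and 649 against 315 and 342 (-0.80 ± 0.27), and MCM2 read 805 and 1080 against 466 and 726 (-0.68 ± 0.19). MCM3 was lower by a smaller amount, at 416 and 572 against 315 and 444 (-0.38 ± 0.21). The other subunits of the helicase had experiments of opposite sign: MCM4 read 511 and 414 against 302 and 476, and MCM6 read 523 and 594 against 527 and 543. GINS2, a helicase cofactor, read 267 and 145 at 6 h and 174 and 87.2 at 9 h (-0.67 ± 0.33). POLA2, a subunit of the primase complex, read 153 and 121 against 59.9 and 81.3 (-0.96 ± 0.38). RRM2, the regulated subunit of ribonucleotide reductase, read 2030 and 1470 at 6 h and 800 and 1090 at 9 h (-0.89 ± 0.34), below both 6 h arrays in each case.

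At 0 h, RRM2 read 1050 and 2620, so the 6 h level was above the 0 h level in experiment 1 and below it in experiment 2. The list as a whole had the same split, with a median change from 0 h to 6 h of 0.35 in experiment 1 and -0.14 in experiment 2, and from 0 h to 9 h of -0.07 and -0.27. These contrasts share their arrays with the 9 h against 6 h contrast, so they are set side by side and not compared by a test. PCNA, the sliding clamp, read 612 and 105 at 6 h and 386 and 130 at 9 h, and CDT1, a licensing factor, read 86.5 and 138 against 25.8 and 146, so neither was lower in both experiments. POLA1, the catalytic partner of POLA2, was 1 of the 4 members higher in both, at 83.7 and 98.1 against 106 and 128 (0.37 ± 0.35).

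For mitosis the experiments differed. Of 50 genes, all tested, 21 (42%) were lower in both experiments and 6 (12%) higher, but the median change was -0.44 within experiment 1 and 0.08 within experiment 2, and the sign of the fitted median of -0.19 was not kept: relative to all genes it was 0.05 unscaled and 0.19 without the 6 h array of experiment 1. With median scaling 17 members were higher in both experiments and 15 lower, against 34.6% and 20.1% of all genes. PLK1, a mitotic kinase, read 361 and 314 at 6 h and 117 and 222 at 9 h (-1.06 ± 0.33), and AURKB, the kinase of the chromosomal passenger complex, read 303 and 365 against 118 and 227 (-1.02 ± 0.29). UBE2C, the ubiquitin conjugase of the anaphase-promoting complex, read 1220 and 937 against 560 and 636 (-0.84 ± 0.23). CDC20, an activator of the same complex, read 932 and 628 against 396 and 482 (-0.81 ± 0.30), and NUSAP1, a spindle protein, changed by -0.51 in each experiment, from 1110 and 1070 to 779 and 750. For these 5 genes all 9 h arrays lay below all 6 h arrays. HMMR, at 400 and 372 against 472 and 504, and ASPM, at 400 and 327 against 426 and 445, were higher in both experiments, and CDK1, the mitotic cyclin-dependent kinase, read 969 and 543 against 549 and 584.

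**Figure D3:**
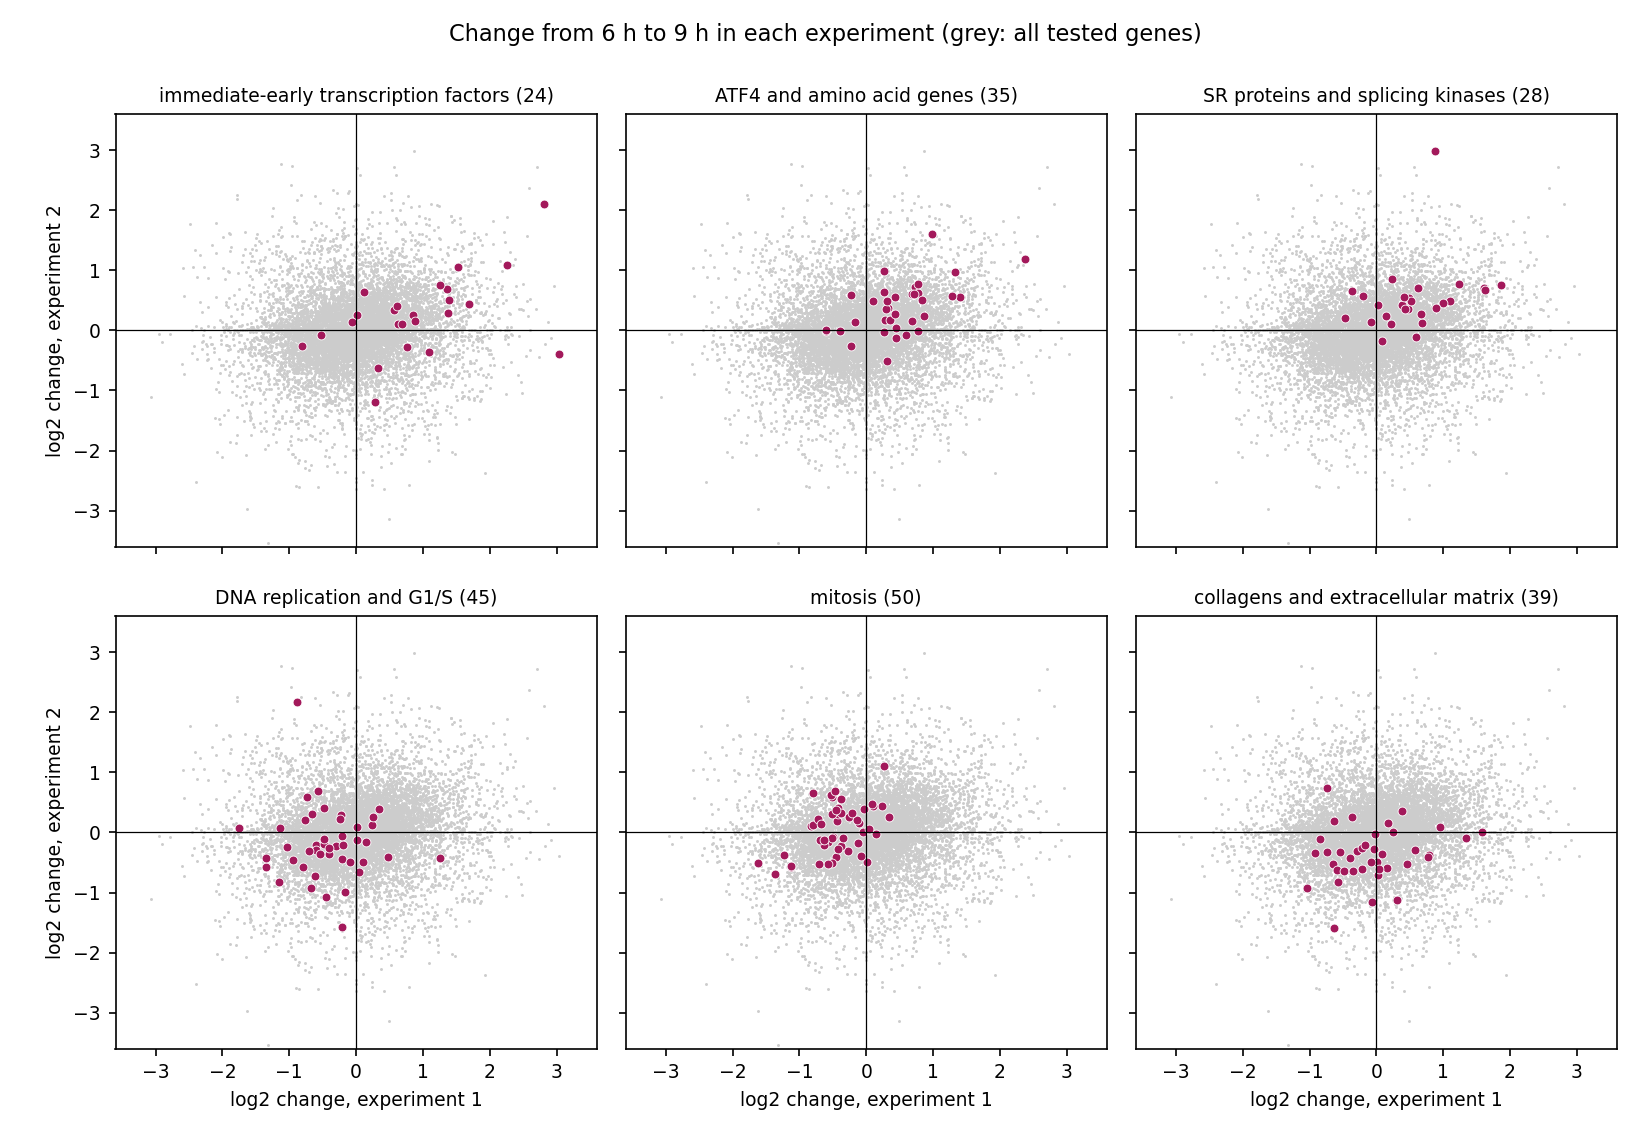
Log2 change from 6 h to 9 h in experiment 1 (horizontal) and experiment 2 (vertical) for the tested members of 6 lists (coloured points, number in each title) over all 10444 tested genes (grey). SR proteins and ATF4 genes gather at the upper right, DNA replication genes at the lower left, and mitosis genes lie left of 0 on both sides of the horizontal line.

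Collagens and other genes of the extracellular matrix were lower at 9 h, more so in experiment 2. Of 43, 39 were tested, 20 (51.3%) were lower in both experiments and 3 (7.69%) higher, and the median change was -0.24 in the fit, -0.08 within experiment 1 and -0.36 within experiment 2. LOXL1, a crosslinking enzyme of elastic fibres, read 382 and 610 at 6 h and 247 and 203 at 9 h (-1.11 ± 0.28). COL5A1, a collagen chain measured by 3 probe sets that were all lower in both experiments, read 261 and 265 against 176 and 149 (-0.70 ± 0.26). COL6A1 read 632 and 249 at 6 h and 421 and 161 at 9 h (-0.61 ± 0.22), though its change was 0.03 with the lot line as the block, and COL4A2, a chain of basement membranes, read 778 and 1490 against 495 and 1040 (-0.59 ± 0.24). For COL6A1 and COL4A2 the levels of the experiments lay apart while the step from 6 h to 9 h was of similar size in both. THBS1, an adhesive glycoprotein, read 214 and 95.1 against 104 and 50.1 (-0.98 ± 0.35), and TIMP1, an inhibitor of matrix metalloproteinases, read 1670 and 1750 against 1300 and 1110 (-0.50 ± 0.18). Fibronectin was outside this pattern by its brightest probe set: of the 6 of FN1, it read 3150 and 2940 at 6 h and 3550 and 3270 at 9 h (0.16 ± 0.17). Of the 6, 3 were higher in both experiments and 1 was lower in both. Actin-linked genes had 12 of 32 members (37.5%) lower in both and 7 (21.9%) higher, with a median of -0.09 within experiment 2. Lower were the focal adhesion adaptor PXN at 309 and 442 against 136 and 267 (-0.95 ± 0.25) and the calponin CNN2 at 399 and 400 against 248 and 169 (-0.97 ± 0.24).

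For p53 targets and growth arrest genes, 21 of 27 were tested, 11 (52.4%) were higher at 9 h in both experiments and 4 (19%) lower, with a median of 0.27 in the fit, 0.36 within experiment 1 and 0.15 within experiment 2. Hs578T cells are known to carry a mutated p53. BAX, a pore-forming killer protein, was at the floor on both 6 h arrays and read 37.8 and 31.8 at 9 h, at least 2.72-fold higher, but its 0 h values were 44.3 and 39.6. PLK2, a stress-induced kinase, read 70.9 and 18.9 at 6 h and 227 and 40 at 9 h (1.38 ± 0.48), with 364 and 30.4 at 0 h. The 9 h values of BAX and PLK2 thus lay above 6 h without standing above 0 h on every array. MDM2, the ubiquitin ligase of p53, was dim at 22.5 and 16 against 34.6 and 29.5, and 1 of its 4 probe sets was lower in both experiments. The cell cycle inhibitor CDKN1A read 136 and 351 at 6 h and 156 and 247 at 9 h (-0.15 ± 0.30), and CDKN1C read 53.2 and 72.2 against 36.8 and 50.3 (-0.53 ± 0.43).

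Apoptosis regulators and caspases had 12 of 27 tested members (44.4%) lower at 9 h in both experiments and 3 (11.1%) higher, with a median of -0.17 in the fit and -0.11 within experiment 2. The split turned over with the scaling: with median scaling 9 members were higher and 7 lower, and unscaled 14 were higher and 0 lower, where the shares of all genes were 34.6% and 20.1%, then 56.2% and 1.65%. PMAIP1, which encodes the BH3-only protein NOXA, was higher by both of its probe sets. The brighter read 706 and 1190 at 6 h and 1290 and 1910 at 9 h (0.77 ± 0.19), and the other read 265 and 432 against 797 and 974 (1.38 ± 0.26). Its 0 h values were 301 and 502 on the brighter probe set, so each later time read higher in each experiment. CASP8, the initiator caspase of death receptors, read 99 and 134 at 6 h and 147 and 188 at 9 h (0.53 ± 0.32). APAF1, the scaffold of the apoptosome, was lower at 80.3 and 82.8 against 43.8 and 44.8 (-0.88 ± 0.42), though 1 of its 3 probe sets was higher in both experiments, and CASP1, an inflammatory caspase, read 200 and 133 against 143 and 90.3 (-0.52 ± 0.29).

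Inflammatory genes depended on the experiment. The cytokine and chemokine list had 6 of 19 tested members (31.6%) higher in both experiments and 6 (31.6%) lower, with a median of 0.51 within experiment 1 and -0.07 within experiment 2. IL6, an inflammatory cytokine, read 64.7 and 54.2 at 6 h and 313 and 50.1 at 9 h. The chemokine genes CCL2, at 303 and 56.4 against 1210 and 45, and CXCL2, at 76.2 and 27.2 against 453 and 32.1, had the same shape, with the 9 h array of experiment 1 far above the others. CXCL8, a neutrophil chemokine, was higher at 9 h in both experiments at different levels, 1090 and 130 against 2450 and 210 (0.93 ± 0.55). TNFAIP6, a hyaluronan-binding protein, was lower in both, at 48.6 and 40.9 against 21.1 and 18.6 (-1.17 ± 0.43). The NF-kB list showed the same difference, with medians of 0.50 and -0.08, and included NFKB1 at 143 and 229 against 316 and 249 (0.64 ± 0.31).

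Among metabolic lists no common direction was found. Hypoxia and glycolysis genes had 11 of 34 tested members (32.4%) higher in both experiments and 10 (29.4%) lower, with a median of 0.01 within experiment 2. Higher in both were PDK1, a kinase that inhibits pyruvate dehydrogenase, at 16.6 and 12.7 against 44.3 and 47.6 (1.66 ± 0.47), and PFKFB4, a glycolytic regulator, at 14.3 and 13.8 against 26.5 and 47.7 (1.34 ± 0.42). Both read at or near the floor of 12.7 at 6 h, and dim genes repeated poorly between the experiments. Of the glycolytic enzymes, 4 were lower by over 0.5, ALDOA at 3060 and 2540 against 1410 and 2050 (-0.71 ± 0.22), GPI at 1580 and 1430 against 808 and 1200 (-0.61 ± 0.24), PGAM1 at 1960 and 1580 against 1270 and 1160 (-0.54 ± 0.18) and TPI1 at 1920 and 1740 against 1100 and 1260 (-0.63 ± 0.18). PKM, at 3090 and 4620 against 1720 and 4670, and GAPDH, at 8270 and 7840 against 7290 and 7920, were not lower in both, nor were PGK1 and HK1. These genes were grouped after their values were seen, and 1 of the 3 TPI1 probe sets was higher in both. The medians within experiment 2 were -0.09 for oxidative phosphorylation, -0.07 for mitochondrial and -0.03 for cytosolic ribosomal proteins. Oxidative phosphorylation had 24 of 60 tested members (40%) lower in both experiments and 15 (25%) higher, with CYC1, a subunit of complex III, at 1630 and 1670 against 1160 and 1100 (-0.54 ± 0.20) and ATP5PO, a subunit of the ATP synthase, higher at 665 and 728 against 1180 and 957 (0.61 ± 0.19). Mitochondrial ribosomal proteins had 17 of 44 (38.6%) lower in both and 9 (20.5%) higher, with MRPL12 at 179 and 201 against 101 and 96.3 (-0.94 ± 0.32). Cytosolic ribosomal proteins had 18 of 52 (34.6%) higher and 10 (19.2%) lower with a median of 0.02, so the shift seen for splicing regulators was not shared by this abundant class.

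The sterol and fatty acid synthesis list had 5 of 22 tested members (22.7%) higher and 5 lower in both experiments, and the interferon and antigen presentation list had 1 of 36 (2.78%) higher and 7 (19.4%) lower. Within experiment 2 their medians were -0.05 and -0.10, and those of the proteasome, NRF2 and heat shock lists were 0.01, -0.02 and -0.03. Proteasome subunits had 11 of 33 (33.3%) higher and 7 (21.2%) lower, with PSMB3 at 997 and 592 against 546 and 425 (-0.67 ± 0.21). Among NRF2 and metal stress genes, 7 of 27 (25.9%) were higher and 11 (40.7%) lower. Its zinc exporter SLC30A1 changed by 0.79 in each experiment, from 207 and 163 to 358 and 281, and GCLM, which helps to make glutathione, read 494 and 412 against 691 and 643 (0.56 ± 0.22). Heat shock proteins and chaperonins had 6 of 22 (27.3%) higher and 9 (40.9%) lower, with the cytosolic chaperone HSP90AB1 at 4850 and 3950 against 2810 and 2940 (-0.61 ± 0.20).

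Other homeobox genes were mostly dim. Of 20 tested, 4 (20%) were higher at 9 h in both experiments and 6 (30%) lower, with a median of -0.01 within experiment 2. HOXC6 read 322 and 311 at 6 h and 184 and 221 at 9 h (-0.65 ± 0.25), with 213 and 249 at 0 h. HOXB5 read 87.6 and 117 against 62.3 and 49.9 (-0.86 ± 0.39), and HOXC13 was at the floor on both 6 h arrays and read 37 and 22.8 at 9 h, at least 2.28-fold higher. At 0 h, HOXC13 read 45.6 and 15.3, so its 9 h value was below 0 h in experiment 1. Within each experiment, HOXC6 thus read lower at 9 h than at 0 h as well as at 6 h. Of 19 tested HOX cofactors and genes linked to HOXA5, 3 (15.8%) were higher in both experiments and 6 (31.6%) lower, with a median of -0.02 within experiment 2. PTN, a secreted growth factor, read 374 and 1210 at 6 h and 179 and 1190 at 9 h, so its change of -1.06 was seen in experiment 1 and that of experiment 2 was -0.02. MEIS2, a HOX partner, read 162 and 80.9 against 191 and 117 (0.38 ± 0.29), and RXRA, a nuclear receptor, read 176 and 186 against 123 and 151 (-0.41 ± 0.32).

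**Figure D4:**
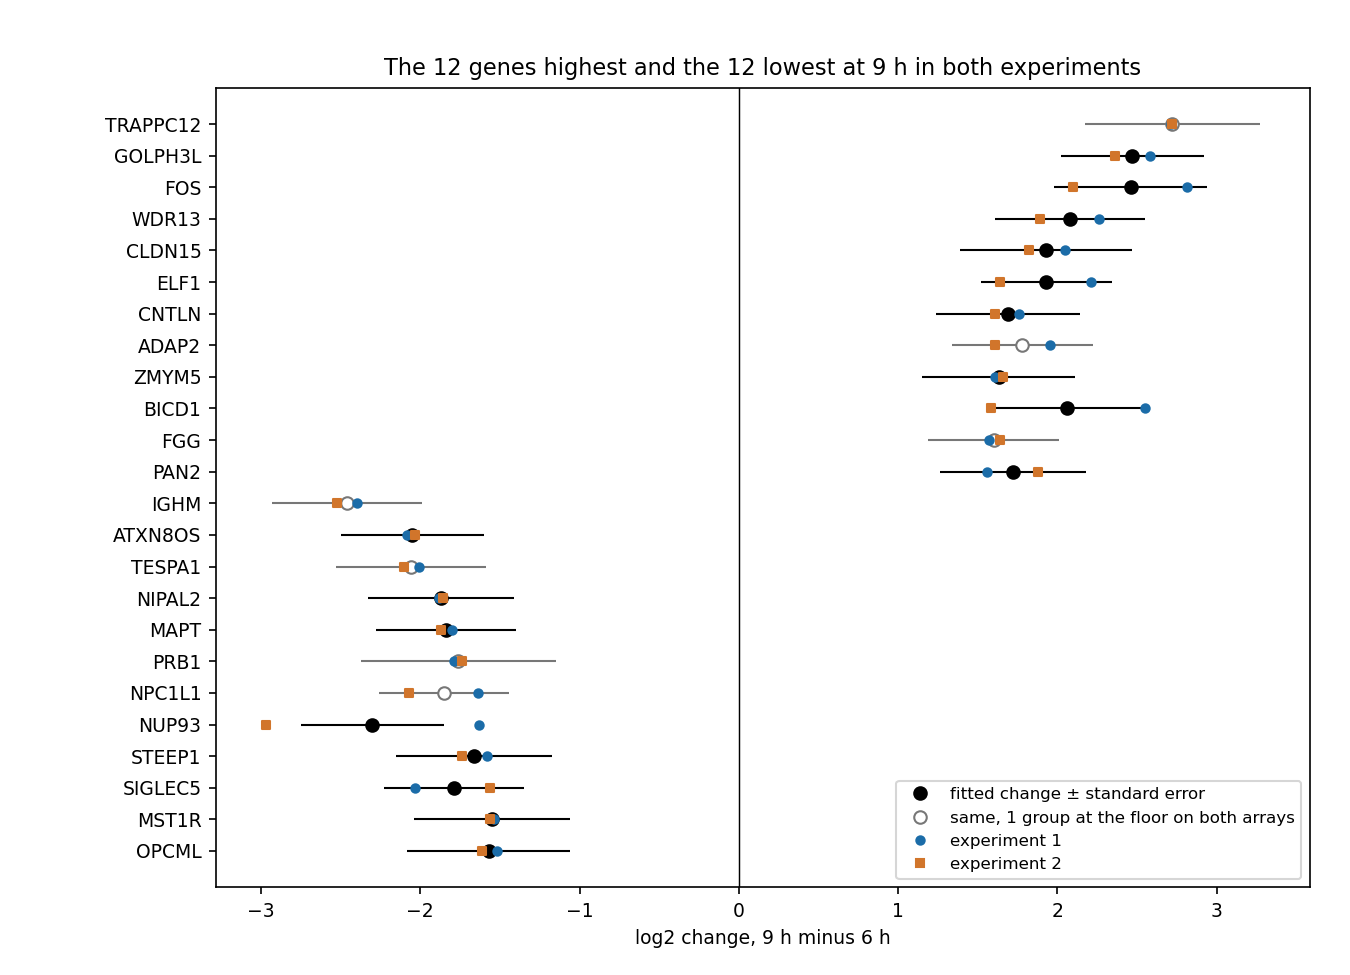
Log2 change from 6 h to 9 h of the 12 genes highest and the 12 genes lowest by the smaller of their changes in the 2 experiments. Black circles give the fitted change with its standard error, open circles mark genes at the floor on both arrays of 1 time, and small circles and squares give experiments 1 and 2. FOS (2.46) is the only gene of the immediate-early list among them.

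The genes with the largest difference in both experiments were chosen by the smaller of their changes, and most were near the floor at 1 of the times. After TRAPPC12, at the floor on both 6 h arrays and at 83.4 and 84 at 9 h (at least 6.57-fold), came GOLPH3L, a Golgi protein, at 22.5 and 12.7 against 135 and 65.5 (2.47 ± 0.45), then FOS, WDR13 (2.08 ± 0.47) and CLDN15 (1.93 ± 0.54). ELF1, an ETS-family transcription factor, was brighter, at 36.6 and 203 at 6 h and 169 and 635 at 9 h (1.93 ± 0.41), while its other probe set changed by 0.24 with experiments of opposite sign. CNTLN, ADAP2, ZMYM5, BICD1, FGG and PAN2 completed this group, of which ADAP2 (at least 3.43-fold) and FGG (at least 3.04-fold) were at the floor at 6 h. At 9 h, WDR13 was below its 0 h level in experiment 1 (log2 change -0.18) and above it in experiment 2 (0.23). PAN2 had the same split (-0.12 and 0.53). The other genes of this group stood above 0 h in both experiments, such as CNTLN (0.39 and 0.40) and FOS (3.33 and 2.10). At 6 h, however, GOLPH3L, WDR13, CNTLN, ADAP2, ZMYM5, BICD1 and PAN2 had read below 0 h in both experiments. For CNTLN the change from 0 h to 6 h was -1.37 and -1.21, and for FOS it was 0.52 and 0.00. On the lower side, NUP93, a nuclear pore scaffold, read 229 and 209 at 6 h and 74.1 and 26.7 at 9 h (-2.30 ± 0.45), with 128 and 178 at 0 h. NUP93, ELF1 and TRAPPC12 were also among the probe sets called when the induced arrays were normalised alone, with log2 changes of -2.29, 1.90 and 2.72 and adjusted p of 0.0162, 0.00878 and 0.0426 in limma. These genes were picked on the same arrays, so the calls are no separate support. IGHM (at least 5.50-fold), TESPA1 (at least 4.17-fold), NPC1L1 (at least 3.61-fold) and PRB1 (at least 3.39-fold) were at the floor on both 9 h arrays, and ATXN8OS, NIPAL2, MAPT, STEEP1, SIGLEC5, MST1R and OPCML were lower with values of at most 135 at 6 h. At 9 h, NPC1L1, MAPT and SIGLEC5 were not below their 0 h levels in either experiment. TESPA1 and MST1R were below 0 h in experiment 2 only, and the other lower genes in both experiments. Several of these genes are known from other tissues than breast, such as IGHM, the immunoglobulin heavy chain of B cells, and the other 3 probe sets of MAPT changed by 0.04, 0.58 and -0.16.

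Set beside the 0 h arrays, which the contrasts share, the lists differed in when they stood above the start. The median of the immediate-early list was 0.66 in experiment 1 and 0.84 in experiment 2 at 6 h against 0 h, and 1.40 and 1.00 at 9 h against 0 h. For the ATF4 list the medians were -0.05 and 0.79 at 6 h and 0.49 and 1.16 at 9 h. For SR proteins and splicing kinases they were 0.14 and 0.49 at 6 h, then 0.53 and 0.87 by 9 h. In experiment 1 the ATF4 list was thus at its starting level at 6 h, while in experiment 2 it was already above it. The extracellular matrix list had medians of -0.18 and 0.12 at 6 h and -0.33 and -0.25 at 9 h.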

How the data were processed

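RNA of 6 cultures was measured on 6 arrays. The authors deposited 1 linear intensity per probe set and array, with no scaling between arrays per the file's values, and by software not given in the sources used here. Of 22283 probe sets, 19071 had 1 symbol in the platform table, 1043 several and 2169 none, and 19059 symbols were read through Entrez numbers. The 68 control probe sets were left out. All 6 arrays were quantile normalised together, values below the 25th percentile were raised to it (log2 3.67), and probe sets above it on at least 2 arrays were kept. limma 3.58.1 in R 4.3.3 fitted time with experiment as a block, with trended eBayes and Benjamini-Hochberg adjustment over 18360 probe sets at a threshold of 0.05, and was tested on simulated data. The arrays were paired by the experiment number in their titles, and the labels describe the experiments as separate batches of RNA. For the 6 h array of experiment 2 the lot line names experiment 1 instead. Deviations from the group means correlated across probe sets between arrays of the same experiment at 0.391 for the induced times, 0.247 for 0 h with 6 h, and 0.336 for 0 h with 9 h. A gene with several probe sets is the brightest. Promoters were searched with Python 3.11.15.

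The comparison and the 32 lists (1042 genes) were chosen with earlier results of these data known. Named by rule were the 12 genes in each direction plus 4 members or fewer of each list, ranked by the smaller of the changes in the 2 experiments, and all others were chosen after their values were seen. Alternatives were no block, other blocks and arrays, other scalings, floors, filters and probe set rules, and leaving out each array. The number of arrays, 2 a group, limits the precision.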

Additional observations from a re-analysis of the deposited data

How the results depend on the processing

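The median standard error of a change was 0.38 on the log2 scale over all genes, 0.47 for the dimmest and 0.25 for the brightest. Leaving out any 1 array gave 0 calls. Without the replicate block limma called 0 probe sets, with a lowest adjusted p of 0.932 and 968 probe sets under an unadjusted p of 0.05. Quantile normalisation over the 4 induced arrays gave 18 higher and 8 lower calls, and the other settings 0. Probe sets at least 2-fold higher and lower in both experiments, 187 and 157 as reported, numbered 755 and 11 unscaled, 462 and 402 with the floor at the 10th percentile, 62 and 48 with a pseudocount of 16, and 42 and 20 among brighter probe sets. Relative to the median of all genes, the list medians were 0.49 (immediate-early), 0.39 (ATF4), 0.45 (SR proteins), -0.30 (replication) and -0.23 (matrix). They became 0.48 (ATF4) and 0.58 (SR proteins) with median scaling, 0.56 and 0.66 unscaled, and 0.45 and 0.25 with the lot line as the replicate block. In the same order of settings, the immediate-early median was 0.63, 0.65 and 0.38. That of replication was -0.20, -0.13 and -0.31, and that of the matrix list was -0.13, -0.11 and -0.13. The replication and matrix medians were thus smaller in size with median scaling and unscaled. Within experiment 1 the medians were 0.43 (ATF4) and -0.47 (replication). Leaving out each array moved ATF4 from 0.26 (without 6 h replicate 1) to 0.58 (without 9 h replicate 1), SR proteins from 0.44 to 0.52 and replication from -0.52 (without 6 h replicate 2) to -0.14 (without 6 h replicate 1). It moved the immediate-early list from 0.24 (without 6 h replicate 1) to 0.73 (without 6 h replicate 2), and the matrix list from -0.37 to -0.13 (the same arrays). With the lot line as the block, EGR1 (-0.22) and COL6A1 (0.03) turned sign, and MDM2 did with the mean of its probe sets (-0.06). Leaving out each array, EGR1 ranged from -0.07 (without 6 h replicate 2) to 0.82 and PTN from -1.29 to 0.20 (without 9 h replicate 1). The cause of these differences was not tested.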

Other observations

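Among the probe sets with the smallest unadjusted p in limma's fit of all 6 arrays are genes of no list, which were chosen after their values were seen and have an adjusted p of 0.473 like the rest. RAB8A, a small GTPase of secretory vesicle transport, had the smallest unadjusted p (0.000211), with 930 and 1150 at 6 h against 365 and 583 at 9 h, and 549 and 706 at 0 h. Its 9 h values were lower than its 6 h and its 0 h values in both experiments. SAT1, the enzyme that acetylates spermidine and spermine for export and breakdown, was measured by 3 probe sets, all higher at 9 h in both experiments. They read 278 and 246 at 6 h against 713 and 515 at 9 h (log2 change 1.21 ± 0.24), 761 and 763 against 1200 and 1260 (0.69 ± 0.20) and 146 and 207 against 307 and 350 (0.91 ± 0.31). For each of the 3 probe sets the 9 h arrays lay above the 6 h arrays, and the 6 h arrays above those of 0 h. NEMF, a factor of ribosome quality control, read 119 and 139 at 6 h against 283 and 399 at 9 h (1.38 ± 0.28), with 135 and 137 at 0 h, so its difference lay between 6 h and 9 h. LSM4, a core protein of the U6 snRNP and of mRNA decay, read 879 and 1120 at 6 h and 391 and 633 at 9 h.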
